A study of Trametes elegans with 15 samples.

Results

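In the white-rot fungus *Trametes elegans*, 46 of 949 listed genes had their largest step in level between cellulose, alone or together with wheat straw, and the other media. The 5 normalised log2 read counts of each gene were sorted, 1 per medium, and the widest interval between neighbouring values was taken as the gene's gap. A gene was kept where the gap was at least 1, which is a doubling, and where either cellulose alone or exactly cellulose and wheat straw lay above it. Cellulose alone lay above the gap in 28 genes, and cellulose and wheat straw in 18. Across the table, 403 genes had a gap of at least 1 in any pattern, among them 53 with wheat straw alone above it, 37 with maltose alone, 18 with pine alone, 12 with aspen alone and 46 with cellulose, wheat straw and aspen above it. The genes were thus chosen by their 5 measured levels, so their levels across the gap are given as a description with no test.

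All cultures were mycelium of the strain BRFM 1663 (titled *Artolenzites elegans*), shaken for 3 days at 30 °C, with 3 samples per medium in the labels. The cellulose medium held 15 g/l of Avicel, a microcrystalline cellulose, with 2.5 g/l of maltose. The wheat straw and pine media held 15 g/l of that solid, also with 2.5 g/l of maltose. The aspen medium held 15 g/l of milled aspen with an amount of maltose that cannot be read in the labels, and the remaining medium held 20 g/l of maltose and no solid. A difference from the maltose medium is therefore a difference in the solid and, for cellulose, straw and pine, in the amount of maltose as well, and the parts of these cannot be told apart. The tissue label could not be checked against marker genes, because genes are listed by number only.

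White-rot fungi digest lignin as well as the polysaccharides of plant cell walls. They take crystalline cellulose apart with secreted enzymes: endoglucanases cut within the chain, cellobiohydrolases release cellobiose from chain ends, lytic polysaccharide monooxygenases cleave chains by oxidation, and beta-glucosidases split cellobiose into glucose. In well studied moulds such as *Neurospora crassa*, genes for such enzymes are transcribed weakly on easily used sugars and strongly when cellulose or its breakdown products are present. Avicel is nearly pure cellulose, whereas in straw, pine and aspen the cellulose is embedded in hemicellulose and lignin. The table does not pair its gene numbers with names or functions, so no role is given to any gene here.

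A deposited level is a mean over libraries of log2(normalised read count + 1), and the whole reads of single libraries could be recovered from its decimals. The recovery covers 3 libraries each for cellulose, pine, aspen and maltose and 2 for wheat straw; the third straw sample was not analysed here. Libraries are called a, b and c within a medium in rising order of their normalised counts per read. The letters are not the replicate numbers of the labels. Over the 789 genes recovered in all 14 libraries, reads per library ranged from 423465 on pine to 1176606 on straw. These sums are part of a library, and the full depth is unknown. Values of 13 or more on cellulose, pine, aspen and maltose were not resolved into libraries and are given as the deposited mean without an error. Levels are not divided by gene length, so a single gene is compared across media and not with another gene. Where genes are set beside the median or the summed counts of all listed genes, gene length enters the values.

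**Figure D1:**
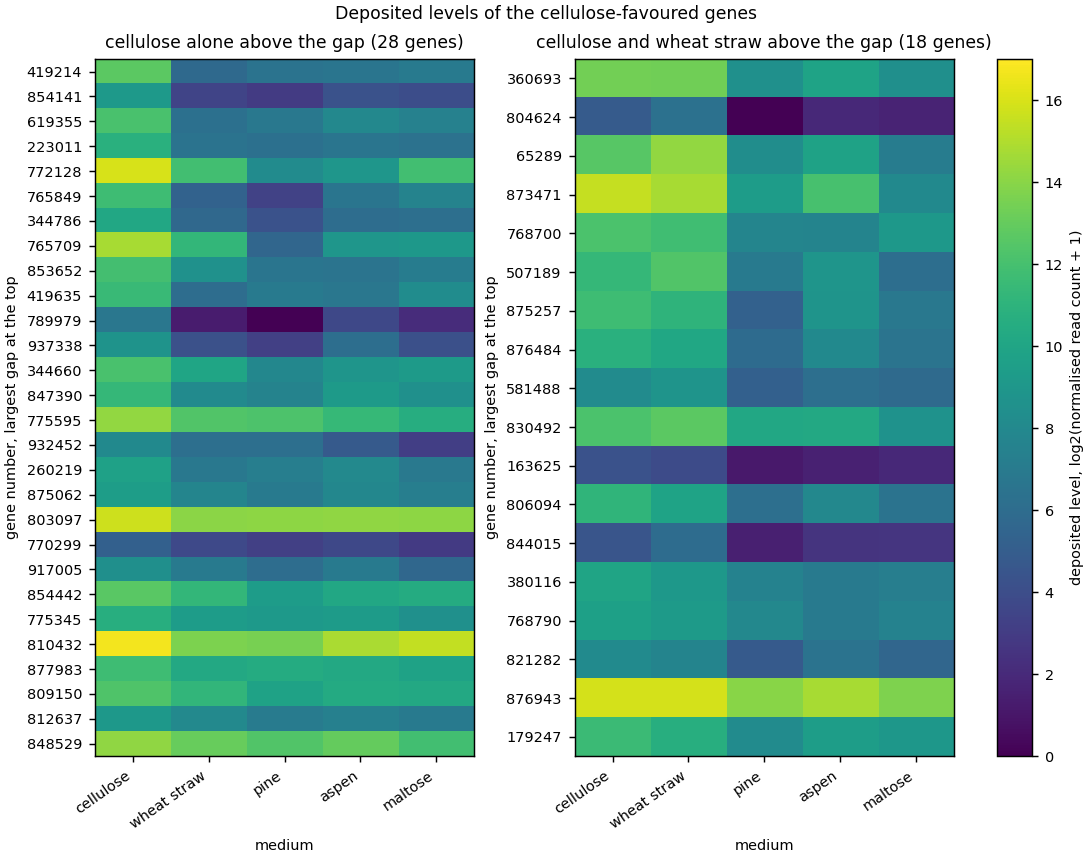
Deposited level of each of the 46 genes, as log2(normalised read count + 1), shown by colour for the 5 media, with genes ordered from the largest gap at the top to the smallest; the left panel holds the 28 genes with cellulose alone above the gap and the right panel the 18 with cellulose and wheat straw above it. The cellulose column is the brightest of every row on the left, and pine is the darkest medium in 14 of those 28 rows.

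In the 28 genes with cellulose alone above the gap, the median level was 11.6 on cellulose, against 7.84 on wheat straw, 6.99 on pine, 7.89 on aspen and 7.55 on maltose. Over all 949 genes the medians were 8.86 on cellulose, 9.21 on wheat straw, 8.11 on pine, 8.91 on aspen and 8.10 on maltose. The gap had a median of 1.97, which is 3.92-fold on the scale of normalised count plus 1, and ran from 1.09 to 5.78. It reached 2 in 14 genes, 3 in 11 and 4 in 7. The genes took 11.3% of the summed normalised counts of all listed genes on cellulose, against 1.94% on straw, 1.76% on pine, 2.78% on aspen and 3.38% on maltose. These sums are carried mostly by the most abundant genes, on cellulose 810432 at a level of 16.67, 772128 at 15.96 and 803097 at 15.69. In these whole-culture samples, fewer hyphae transcribing a gene and less transcript per hypha cannot be told apart.

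Gene 419214 had the largest gap. Its levels were 12.69, 12.99 and 12.53 in the cellulose libraries, 5.89 and 5.70 on straw, 6.40, 6.66 and 6.30 on pine, 6.56, 6.44 and 6.84 on aspen, and 6.58, 7.12 and 7.18 on maltose. The 3 cellulose libraries stood far above the 11 others, which ran from 5.70 to 7.18. The mean of 12.74 ± 0.23 (SD, n = 3) on cellulose was 54.8-fold above the 6.96 ± 0.33 (SD, n = 3) on maltose, the next highest medium.

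Gene 223011 was nearly flat outside cellulose. Its cellulose libraries read 10.79, 11.21 and 10.28, against 6.65 and 6.35 on straw, 6.22, 6.68 and 5.99 on pine, 6.55, 6.51 and 6.67 on aspen and 6.57, 6.65 and 6.04 on maltose. The libraries of the 4 other media overlapped one another, and cellulose was 18.2-fold above aspen, the highest of them.

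Gene 854141 had few reads outside cellulose. It took 388 to 748 reads in a cellulose library and 5 to 29 in a library of any other medium. In levels this was 9.08, 9.61 and 8.72 on cellulose, against 3.32 and 3.66 on straw, 2.98, 3.08 and 2.81 on pine, 4.75, 3.73 and 4.43 on aspen and 3.29, 4.15 and 4.67 on maltose. The aspen and maltose libraries overlapped, and the gap to aspen was 28.5-fold.

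Genes 619355, 765849 and 344786 kept more of their level on some of the lower media than on others. Gene 619355 had levels of 12.09, 12.47 and 11.75 on cellulose, 6.23 and 6.31 on straw, 6.88, 6.75 and 6.80 on pine, 8.16, 7.80 and 7.79 on aspen and 7.05, 7.34 and 8.09 on maltose. Straw was its lowest medium, and every straw and pine library lay below every aspen and maltose library. Gene 765849 had 11.53, 11.57 and 11.99 on cellulose, 5.0 and 5.73 on straw, 4.06, 2.89 and 3.04 on pine, 6.72, 6.43 and 6.68 on aspen and 7.17, 7.57 and 8.10 on maltose. Its 5 media did not overlap at all: after cellulose came maltose, aspen, straw and pine. For gene 344786 the cellulose libraries read 10.10, 10.20 and 10.32, against 5.32 and 6.17 on straw, 4.06, 4.0 and 4.78 on pine, 5.99, 6.15 and 6.10 on aspen and 5.72, 6.13 and 6.72 on maltose. Only pine stood apart from the other lower media here.

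**Figure D2:**
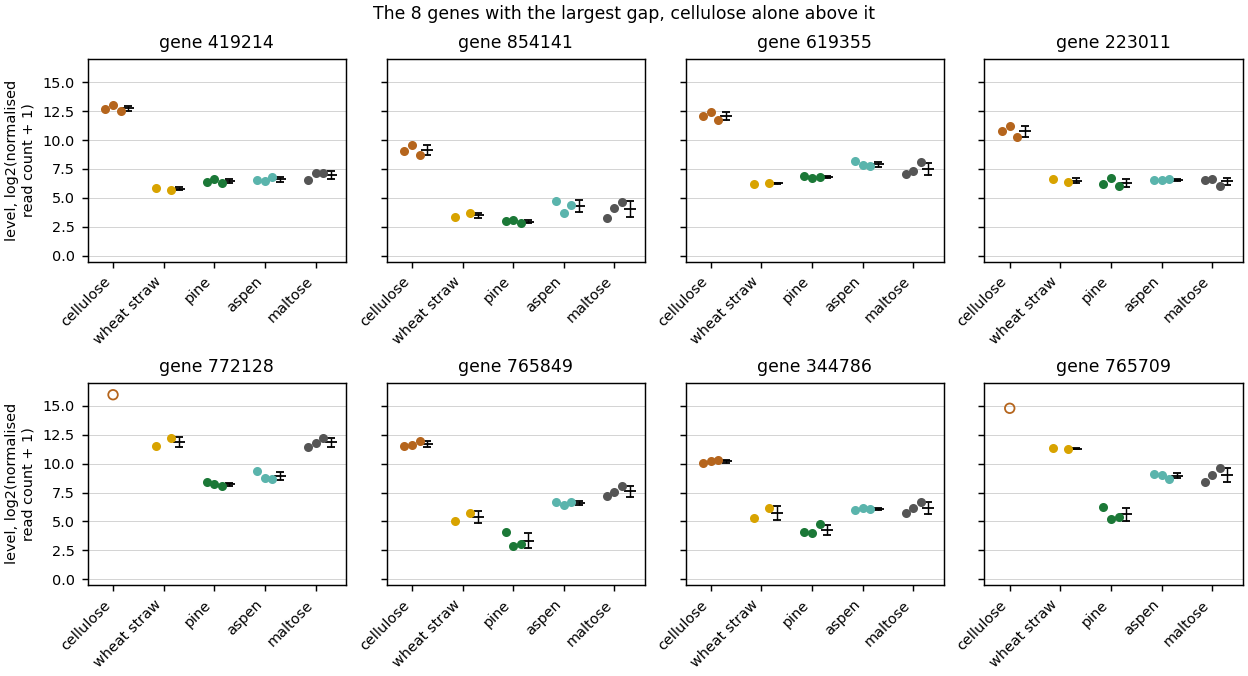
Level, as log2(normalised read count + 1), in each recovered library for the 8 genes with the largest gap among those with cellulose alone above it, with the mean and SD of each medium beside the points (n = 3, straw n = 2); an open circle is a deposited mean whose libraries were not resolved. In gene 419214 the cellulose points lie between 12.53 and 12.99 and all others at or below 7.18, and in genes 854141, 772128, 765849, 344786 and 765709 the pine points are the lowest.

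Some genes combined a high count on cellulose with a second tier on straw or maltose. Gene 772128 had a deposited level of 15.96 on cellulose, with 11.54 and 12.19 on straw, 8.37, 8.22 and 8.08 on pine, 9.36, 8.74 and 8.71 on aspen and 11.46, 11.82 and 12.23 on maltose. Straw and maltose overlapped and both lay above both woods, and the step to cellulose was a log2 difference of 4.09. Gene 765709 had 14.79 on cellulose, 11.32 and 11.26 on straw, 6.28, 5.18 and 5.38 on pine, 9.12, 9.04 and 8.69 on aspen and 8.44, 9.03 and 9.64 on maltose. Straw was above the other lower media, pine was below all of them, and aspen and maltose overlapped. Its difference of 9.17 between cellulose and pine was the largest of the subset.

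The description of these genes as low on both woods holds against cellulose but not in absolute terms. Gene 810432 had a deposited level of 16.67 on cellulose, 13.65 ± 0.29 (SD, n = 2) on straw, 13.53 on pine, 14.84 on aspen and 15.43 on maltose. Gene 803097 had 15.69 on cellulose and a narrow band elsewhere, with 14.07 and 14.08 in the straw libraries and deposited means of 14.12 on pine, 14.17 on aspen and 14.13 on maltose. On both woods these genes were thus far from silent. In all, 9 of the 28 genes were above the median of all listed genes on pine and on aspen alike.

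At the other end, gene 789979 had 0 reads in each of the 3 pine libraries. It had 87, 103 and 116 reads in the cellulose libraries, 1 and 2 on straw, 12, 19 and 9 on aspen and 2, 7 and 4 on maltose. Against a floor of 3 reads over the 3 pine libraries, its mean normalised count was at least 99.5-fold higher on cellulose. That floor covers counting error only.

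The lower end of the subset was set by the minimum gap. The 2 genes just inside it were 848529, with 14.15 on cellulose and 13.06 on straw, and 812637, with 9.08 on cellulose and 7.97 on straw. The 2 genes of the same pattern just outside it were 122163, with 9.35 on cellulose and 8.39 on straw, and 879707, with 6.97 on cellulose and 6.03 on straw. Their gaps were 1.09 and 1.10 inside, and 0.96 and 0.94 outside, so the boundary cuts a continuous range.

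For the 22 of these 28 genes recovered in every library, each cellulose library lay above all 11 others. Among the 789 genes recovered in all libraries 10.5% had this arrangement, and nothing is read from the difference because the same levels chose the genes. The median SD between cellulose libraries was 0.194 over the 22 genes and 0.170 over all genes with recovered cellulose libraries.

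The order of the 4 media below the gap was not part of the rule, beyond the limit that no step among them could exceed the gap. The next highest medium after cellulose was straw in 13 genes, aspen in 9, maltose in 5 and pine in 1. The lowest was pine in 14 genes, maltose in 8, straw in 5 and aspen in 1. Pine was the lowest of these 4 media in 50% of the genes, against 28.1% of all listed genes. Between the highest and the lowest of the 4, the median range was 1.64.

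In the 18 genes with cellulose and wheat straw above the gap, the median level was 11.2 on cellulose and 10.4 on straw, against 7.26 on pine, 7.99 on aspen and 6.95 on maltose. The gap had a median of 1.98, or 3.94-fold, and ran from 1.14 to 3.49. It reached 2 in 9 genes and 3 in 1. The genes took 5.02% of the summed normalised counts of all listed genes on cellulose and 4.62% on straw, against 0.771% on pine, 1.57% on aspen and 0.725% on maltose. These sums are carried mostly by the most abundant genes, on cellulose 876943 at a level of 15.93 and 873471 at 15.49.

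Gene 360693 had the largest gap of these genes. Its levels were a deposited 13.39 on cellulose and 13.47 and 13.20 in the straw libraries, against 8.52, 8.51 and 8.49 on pine, 9.70, 9.92 and 9.92 on aspen and 8.32, 8.57 and 8.44 on maltose. Cellulose and straw were close together, aspen lay above pine and maltose, and pine and maltose overlapped. The lower of the 2 upper media, straw at 13.33 ± 0.20 (SD, n = 2), was 11.2-fold above aspen at 9.85 ± 0.13 (SD, n = 3).

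Gene 873471 spread widely below the gap. It had a deposited 15.49 on cellulose, 15.01 and 14.60 on straw, 9.30, 9.34 and 9.48 on pine, 12.02, 12.01 and 12.13 on aspen and 8.06, 8.15 and 8.10 on maltose. The order was cellulose, straw, aspen, pine and maltose, with no overlap among the recovered libraries. Straw was 6.72-fold above aspen, and cellulose was 168-fold above maltose.

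Gene 65289 was higher on straw than on cellulose. Its libraries read 12.72, 12.74 and 12.20 on cellulose, 14.52 and 13.93 on straw, 8.59, 8.35 and 8.16 on pine, 9.78, 9.90 and 9.74 on aspen and 7.07, 7.22 and 7.03 on maltose. Both straw libraries lay above all cellulose libraries, and the lower media kept the order aspen, pine, maltose without overlap. The same order below the gap was seen in gene 507189, with 11.35, 11.46 and 11.25 on cellulose, 12.70 and 12.03 on straw, 7.23, 7.08 and 6.72 on pine, 8.56, 8.98 and 9.12 on aspen and 5.88, 6.25 and 6.37 on maltose. Its straw libraries again lay above its cellulose libraries.

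Genes 875257 and 876484 were lowest on pine. Gene 875257 had 11.64, 11.77 and 11.81 on cellulose, 11.17 and 10.94 on straw, 5.43, 5.22 and 5.26 on pine, 8.53, 8.83 and 9.05 on aspen and 6.66, 6.76 and 6.96 on maltose. No medium overlapped another. Gene 876484 had 11.36, 11.12 and 9.82 on cellulose, 9.96 and 10.34 on straw, 5.93, 5.74 and 6.19 on pine, 7.33, 8.44 and 8.36 on aspen and 6.26, 6.67 and 6.64 on maltose. Its cellulose libraries differed from each other by more than those of the other genes of the subset recovered there, with an SD of 0.83 (n = 3), and overlapped the straw libraries.

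Gene 768700 had a higher level on maltose than on either wood. It had 12.32, 12.28 and 11.97 on cellulose, 11.67 and 11.90 on straw, 7.93, 7.86 and 7.35 on pine, 8.13, 7.68 and 7.26 on aspen and 8.48, 8.93 and 9.74 on maltose. The 2 woods overlapped and every maltose library lay above them.

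Gene 804624 rested on few reads. It had 25, 25 and 31 reads in the cellulose libraries, 86 and 72 on straw, 0 in each pine library, 1, 4 and 6 on aspen and 3, 4 and 1 on maltose. Against a floor of 3 reads over the 3 pine libraries, its mean normalised count was at least 26.3-fold higher on cellulose and at least 75.0-fold higher on straw. Gene 876943 was the counterpart at high counts, with a deposited level of 15.93 on cellulose, 15.88 and 15.91 in the straw libraries, and deposited levels of 13.97 on pine, 14.74 on aspen and 13.74 on maltose.

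Level 5 on cellulose was not reached by 3 of the 18 genes: 804624, 844015 and 163625, the last of which is named here after its values were seen. Gene 844015 had 27, 27 and 12 reads on cellulose, 69 and 54 on straw, 0, 5 and 2 on pine, 11, 1 and 9 on aspen and 6, 5 and 6 on maltose. Both straw libraries lay above the cellulose libraries, but straw minus cellulose was 1.49 ± 0.75 (SE, limma, adjusted p = 0.106), which is not under 0.05. The lower media overlapped. Gene 163625 had 12, 21 and 22 reads on cellulose, 17 and 10 on straw, 0, 2 and 2 on pine, 2, 0 and 8 on aspen and 2, 5 and 3 on maltose. Cellulose overlapped straw, and the lower media overlapped each other. Pine minus aspen was -1.09 ± 0.68 in gene 844015 and -0.40 ± 0.69 in gene 163625 (SE; limma, adjusted p = 0.166 and 0.621), so no difference between the woods was detectable at these counts.

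**Figure D3:**
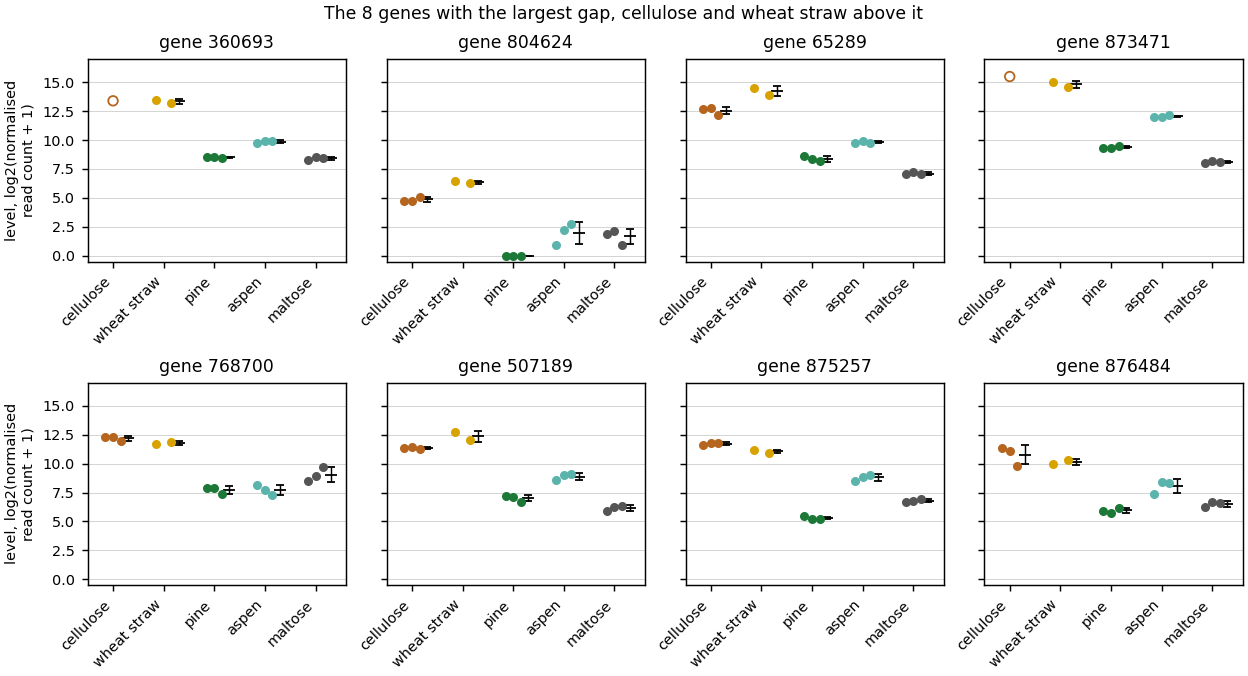
Level, as log2(normalised read count + 1), in each recovered library for the 8 genes with the largest gap among those with cellulose and wheat straw above it, with the mean and SD of each medium beside the points (n = 3, straw n = 2); an open circle is a deposited mean whose libraries were not resolved. Straw points exceed cellulose points in genes 804624, 65289 and 507189, and aspen points lie above pine points in every panel except that of gene 768700, where the 2 woods overlap.

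Gene 876943, with a gap of 1.15, and gene 179247, with a gap of 1.14, lay just inside the minimum. Gene 179247 had levels of 11.56 on cellulose, 10.63 on straw, 8.21 on pine, 9.50 on aspen and 9.02 on maltose. Just outside it, gene 814339 had a gap that rounds to 1.00, with 9.43 on cellulose, 10.35 on straw and 8.43 on aspen, and gene 846627 had a gap of 0.97, with 7.94 on cellulose, 8.11 on straw and 6.97 on maltose. Of the 18 genes, 15 were recovered in every library, and in each of these 15 the 5 cellulose and straw libraries lay above all 9 others. Among the 789 genes recovered in all libraries 10.6% had this arrangement, and the same levels chose the genes.

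Tests were made only between media that lie on the same side of the gap, where the rule does not set the direction of a difference although it limits its size. limma was fitted to the recovered libraries of all listed genes, with Benjamini-Hochberg adjustment over every gene tested in a comparison. Genes whose reads were not resolved in both media of a comparison were left out of it, which were at most 3 of each subset. A gene is called different here at an adjusted p under 0.05 and a log2 difference of at least 1. The labels do not say whether the samples of a medium were separate cultures, so the p-values measure the spread between libraries, which may be technical. The comparisons with maltose share the maltose libraries, and those with pine or aspen share the wood libraries.

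Pine against aspen gave mostly lower calls in both subsets, with genes 789979, 875257, 765709, 765849, 937338 and 873471 at the far end. With cellulose alone above the gap, 9 of the 25 genes tested (36%) were lower on pine and 1 was higher, against 27.0% lower, 7.30% higher and 34.3% called in either direction among the 836 genes tested. With cellulose and wheat straw above the gap, 11 of 17 (64.7%) were lower on pine and 1 was higher. The median of pine minus aspen was -0.72 with cellulose alone and -1.34 with cellulose and straw, against -0.39 over all genes tested.

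The pine and aspen calls moved with the scaling of the libraries. The median of pine minus aspen was -0.14 with cellulose alone, -0.76 with cellulose and straw and 0.19 over all genes tested when each library was centred on its median. Under quantile normalisation these medians were -0.19, -0.54 and 0.22, and under centring on the median difference from the gene means -0.42, -1.04 and -0.09. Both subsets thus lay below all genes under each of these scalings. With each library centred on its median, 6 genes were lower and 2 higher on pine with cellulose alone above the gap, and 7 lower and 2 higher with cellulose and straw. Quantile normalisation gave 5 lower and 2 higher with cellulose alone, and 6 lower and 2 higher with cellulose and straw. Centring on the median difference from the gene means gave 7 lower and 2 higher with cellulose alone, and 9 lower and 1 higher with cellulose and straw. For the genes with cellulose and straw above the gap, the share lower on pine was then 41.2% against 15.6% of all genes under median centring, 35.3% against 15.4% under quantile normalisation and 52.9% against 19.3% under the last scaling. The corresponding shares with cellulose alone were 24%, 20% and 28%.

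The 2 largest lower calls of each subset were as follows. Gene 875257 was lower on pine than on aspen by a log2 difference of -3.50 ± 0.14 (SE; limma, adjusted p = 7.35e-11), and gene 873471 by -2.68 ± 0.11 (adjusted p = 4.24e-10). Among the genes with cellulose alone above the gap, gene 765709 differed by -3.34 ± 0.30 (SE; limma, adjusted p = 8.36e-07). Gene 789979, with no reads on pine, differed by a fitted -3.70 ± 0.39 (SE; limma, adjusted p = 1.04e-06), a value that depends on the added count of 1. In all 4 genes every pine library lay below every aspen library.

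In each subset 1 gene went the other way. Gene 932452 had 7.88, 7.92 and 8.42 on cellulose, 6.29 and 6.19 on straw, 6.70, 6.32 and 5.58 on pine, 4.09, 4.88 and 5.40 on aspen and 3.63, 2.44 and 3.38 on maltose. Its pine and straw libraries lay together above aspen, and maltose was lowest. Pine was higher than aspen by 1.41 ± 0.37 (SE; limma, adjusted p = 0.00351). Gene 768790 had 8.09, 7.96 and 7.84 on pine against 7.17, 6.85 and 6.85 on aspen. The woods did not overlap, but the difference of 1.00 ± 0.17 (SE; limma, adjusted p = 1.19e-04) stood at the minimum size, and fell to 0.94 without pine library a and to 0.95 without aspen library b or c, below the size for a call. It was 1.58 with each library centred on its median, 1.72 under quantile normalisation and 1.31 when centred on the median difference.

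**Figure D4:**
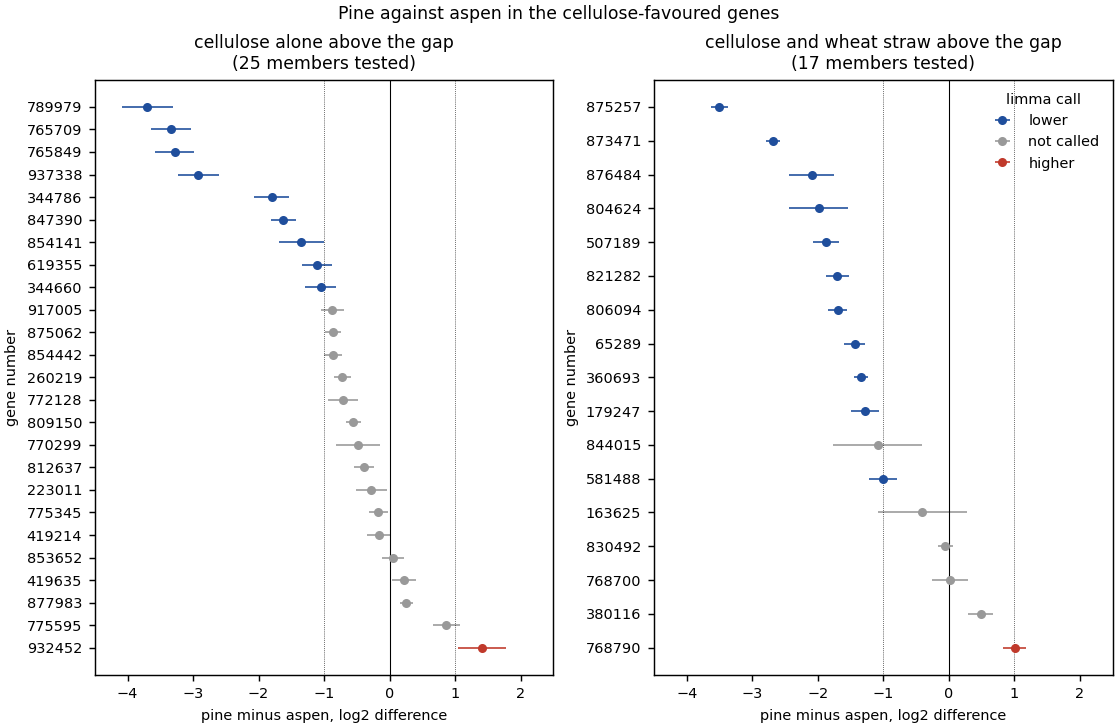
Log2 difference of pine minus aspen with its limma standard error for the 25 tested genes with cellulose alone above the gap (left) and the 17 with cellulose and wheat straw above it (right), coloured by the call (adjusted p under 0.05 and a difference of at least 1, shown by dotted lines). Points left of 0 are lower on pine; 9 genes on the left and 11 on the right are called lower on pine, and 1 on each side higher.

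Pine against maltose gave mostly lower calls in the genes with cellulose alone above the gap and as many in each direction in the others. Of 26 genes tested with cellulose alone, 9 (34.6%) were lower on pine and 2 higher, against 18.1% lower, 20.4% higher and 38.4% called in either direction among the 830 genes tested. Of 17 tested with cellulose and straw, 3 were lower and 3 higher. The median of pine minus maltose was -0.54 with cellulose alone and -0.57 with cellulose and straw, against 0.06 over all genes tested. In the same order, these medians were -0.51, -0.07 and 0.09 with only genes at a mean level of at least 5. With a pseudocount of 5 they were -0.52, -0.30 and 0.06. The median with cellulose and straw thus depended on genes at low levels. Both centrings of the libraries gave the same counts of calls. Quantile normalisation gave 7 lower and 2 higher with cellulose alone and 2 lower and 3 higher with cellulose and straw. Of all genes tested, 19.2% were lower and 18.3% higher with each library centred on its median. The shares were 18.4% and 19.6% when centred on the median difference, and 17.8% and 19.6% under quantile normalisation.

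Gene 765849 was lower on pine than on maltose by -4.29 ± 0.30 (SE; limma, adjusted p = 1.18e-08), and gene 772128 by -3.61 ± 0.23 (adjusted p = 1.84e-08). Higher on pine were gene 932452, by 3.05 ± 0.37 (SE; limma, adjusted p = 3.97e-06), and gene 775595, by 1.61 ± 0.21 (adjusted p = 2.31e-05). The levels of gene 775595 were a deposited 14.25 on cellulose, 12.18 and 12.54 on straw, 12.26, 12.24 and 12.17 on pine, 11.57, 11.36 and 11.13 on aspen and 10.16, 10.49 and 11.21 on maltose. Pine lay with straw in this gene, and 1 maltose library reached into the aspen range.

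Among the genes with cellulose and straw above the gap, genes 875257 and 804624 were lower on pine than on maltose, by -1.49 ± 0.14 (SE; limma, adjusted p = 1.92e-07) and by -1.67 ± 0.45 (adjusted p = 0.00442). The second rests on 0 reads on pine and 1 to 4 on maltose, and was no longer called with a pseudocount of 5. Gene 830492 was higher on pine by 1.56 ± 0.12 (SE; limma, adjusted p = 1.77e-08), with 10.20, 10.16 and 10.23 on pine against 8.62, 8.63 and 8.66 on maltose. Gene 873471 was higher on pine by 1.27 ± 0.11 (SE; limma, adjusted p = 3.13e-07).

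Aspen against maltose gave mostly higher calls in the genes with cellulose and straw above the gap. Of 17 tested, 8 (47.1%) were higher on aspen and 1 lower, against 29.6% higher, 13.2% lower and 42.8% called in either direction among the 827 genes tested. With cellulose alone above the gap, 5 of 25 (20%) were higher and 3 lower. The median of aspen minus maltose was 0.87 with cellulose and straw and 0.41 with cellulose alone, against 0.32 over all genes tested. Median centring of the libraries gave 4 higher and 2 lower with cellulose and straw, and 1 higher and 6 lower with cellulose alone, while all genes tested gave 148 higher and 221 lower, against 245 higher and 109 lower as deposited. Quantile normalisation gave 4 higher and 2 lower with cellulose and straw, and 3 higher and 6 lower with cellulose alone. Centring on the median difference kept 8 higher and 1 lower with cellulose and straw, and gave 3 higher and 3 lower with cellulose alone. Of all genes tested, 19.5% were higher and 25.3% lower under quantile normalisation. Centring on the median difference gave 22.7% higher and 18.1% lower.

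Gene 873471 was higher on aspen than on maltose by 3.96 ± 0.11 (SE; limma, adjusted p = 2.44e-12), and gene 507189 by 2.72 ± 0.20 (adjusted p = 8.38e-09). Gene 768700 was lower on aspen by -1.36 ± 0.28 (SE; limma, adjusted p = 4.58e-04). With cellulose alone above the gap, gene 772128 was lower on aspen by -2.90 ± 0.23 (SE; limma, adjusted p = 9.79e-08) and gene 419635 by -1.53 ± 0.19 (adjusted p = 2.75e-06). Gene 937338 was higher on aspen by 2.01 ± 0.32 (SE; limma, adjusted p = 4.29e-05), with 94, 82 and 52 reads on aspen against 17, 17 and 21 on maltose. Gene 932452 was higher by 1.64 ± 0.37 (SE; limma, adjusted p = 0.00108), and by 0.97 with each library centred on its median, which is below the size for a call.

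Straw could be tested against maltose in the genes with cellulose alone above the gap. There 7 of 26 (26.9%) were higher on straw and 4 (15.4%) lower, against 34.7% higher, 12.0% lower and 46.7% called in either direction among the 858 genes tested. The medians of straw minus maltose were 0.42 for these genes and 0.40 over all genes tested. Centring each library on its median turned the split to 2 higher and 9 lower, quantile normalisation to 1 higher and 11 lower, and centring on the median difference to 4 higher and 5 lower, while the medians of all genes tested moved to -0.57, -0.81 and 0.05. The subset's own medians under these scalings were -0.55, -0.84 and 0.07, so it moved with all genes.

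Single genes differed widely between straw and maltose. Gene 932452 was higher on straw by 3.09 ± 0.42 (SE; limma, adjusted p = 9.69e-06). Gene 765709 was higher by 2.25 ± 0.34 (SE; limma, adjusted p = 6.46e-05), and by 0.62 under quantile normalisation, where it was not called. Lower on straw were gene 765849, by -2.25 ± 0.34 (SE; limma, adjusted p = 2.93e-05), and gene 419635, by -2.22 ± 0.21 (adjusted p = 1.86e-07). The levels of gene 419635 were 11.40, 12.03 and 11.16 on cellulose, 6.23 and 5.89 on straw, 7.12, 6.99 and 6.81 on pine, 6.68, 6.80 and 6.78 on aspen and 8.11, 8.37 and 8.37 on maltose. Straw was the lowest of its media and maltose the highest after cellulose, both without overlap.

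Straw could be tested against cellulose in the genes with both above the gap. Of 15 tested, 3 (20%) were higher on straw and 1 (6.67%) lower, against 21.7% higher, 9.43% lower and 31.1% called in either direction among the 848 genes tested. The genes left out, 360693, 873471 and 876943, were above 13 on cellulose, and their deposited straw minus cellulose was -0.06, -0.69 and -0.04. The median of straw minus cellulose was -0.41 in the 15 genes tested, against 0.16 over all genes tested. Of the 18 deposited differences, 12 were below 0. The rule keeps each of these 18 differences smaller than the gene's own gap, a limit that does not hold for all genes. The shares and medians are therefore not like for like with those of all genes, and nothing is read from setting them side by side. Other scalings moved all genes tested towards lower on straw. With each library centred on its median, 15.4% of them were higher and 14.9% lower. The shares were 19.5% and 11.4% when centred on the median difference, and 10.7% and 27.5% under quantile normalisation. In that order, the medians over all genes tested were -0.18, 0.04 and -0.51, and those of the 15 genes -0.75, -0.53 and -1.07. The split of the 15 genes moved to 1 higher and 4 lower with each library centred on its median. It moved to 2 and 2 when centred on the median difference, and to 0 and 8 under quantile normalisation. Without straw library a, 1 gene was higher and 1 lower.

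Gene 65289 was higher on straw than on cellulose by 1.67 ± 0.19 (SE; limma, adjusted p = 2.12e-06), and by -0.11 under quantile normalisation, where the sign turned. Gene 804624 was higher by 1.49 ± 0.51 (SE; limma, adjusted p = 0.0206), and its adjusted p was 0.0501 without cellulose library a, 0.0555 without cellulose library b, 0.104 without straw library a and 0.0701 without straw library b, so its call rests on each of these. Gene 806094 was lower on straw by -1.27 ± 0.16 (SE; limma, adjusted p = 7.73e-06), with 9.93 and 9.76 on straw against 11.06, 11.03 and 11.26 on cellulose. The straw libraries of gene 806094 lay below all its cellulose libraries.

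Some libraries lay to the same side of their medium's mean in many of these genes. Maltose library c was the highest of its medium in 19 of 26 genes with cellulose alone above the gap (73.1%), against 41.8% of all genes recovered on maltose. The median deviations from a gene's maltose mean were -0.22 in library a, -0.02 in library b and 0.25 in library c, against -0.05, 0.02 and 0.03 over all genes. By the order of the letters, library c also had the most normalised counts per read of the maltose libraries (0.940) and library a the fewest (0.878). The median SD between maltose libraries was 0.322 in these genes and 0.157 over all genes. Straw library a was the higher of the pair in 14 of the 18 genes with cellulose and straw above the gap (77.8%), against 55.1% of all genes. The part of these shared deviations in the comparisons with maltose and straw was not tested beyond leaving out each library.

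**Figure D5:**
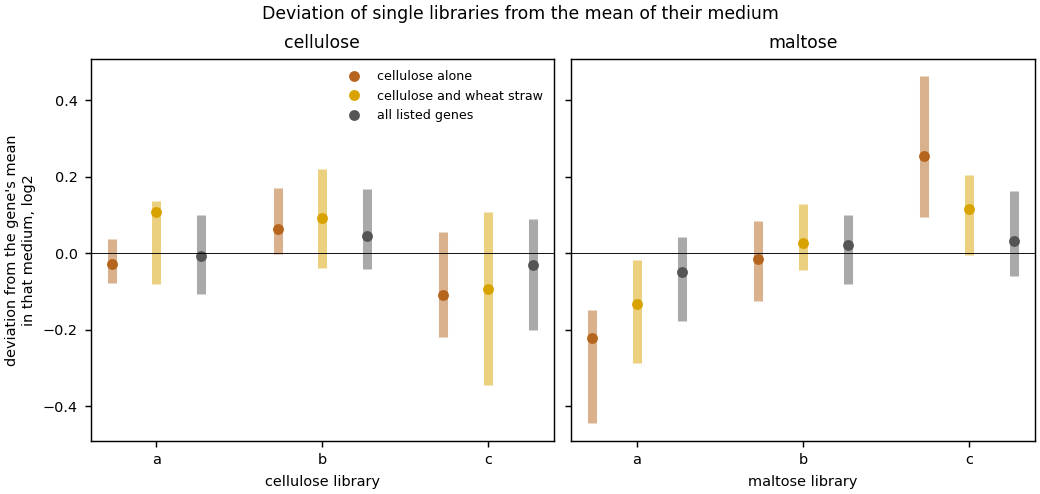
Deviation of each library from the gene's mean in its medium, on the log2 scale, for cellulose (left) and maltose (right); points are medians over genes and bars the interquartile range, for both subsets and all listed genes. In the genes with cellulose alone above the gap, maltose library c has a median of 0.25 and library a of -0.22, while over all genes both lie within 0.05 of 0.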

How the data were processed

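Transcript levels of *Trametes elegans* mycelium were measured on 5 media, from poly A RNA sequenced as paired-end reads, per the labels' protocols. TopHat2, HTSeq and DESeq 1.5 appear in the submitters' processing notes, with no roles, and for the genome build and annotation the sources used here give no name. Per the file headers, the authors deposited 5 columns of normalised log2 read counts for 949 genes. How those genes were picked is not stated, so every background share is over listed genes.

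Each deposited log2 value was decoded as the mean over libraries of log2(reads x factor + 1), with whole reads and 1 factor per library. Of 4745 values, 4375 gave exactly 1 set of reads within 4e-14 below level 9, 6e-14 from 9 to 10 and 2e-13 from 10. All 2564 values below level 9 were resolved, against 0 of as many decoys shifted by 1e-06. From 9 to 13, 1704 of 1741 were resolved and 108 decoys found a match, so some sets in that range may be false. Of 20 low straw values, 20 decoded with 2 libraries and 0 with 3; in the other media the reverse held. Of the values at 13 or more, the 333 outside straw were not searched. Tested on simulated tables, all unique sets were the true reads (858 of 858 for maltose). Normalised counts per read were 0.878 to 1.20. Replicate libraries differed beyond sampling noise (chi-square divided by its degrees of freedom, 3.72 to 96.5).

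Reads were recovered in Python 3.11.15, and the 14 libraries were modelled with limma 3.58.1 (R 4.3.3), with a mean per medium and an intensity trend. In simulated data of pine against aspen (836 genes tested), limma called 87 of 90 genes changed by 1.5, 88 of 88 changed by 3 and 0 of 658 unchanged genes. The simulation gave every gene the same relative spread beyond counting noise, with no deviation of a library shared between genes. The real libraries had such shared deviations, so these rates need not hold for them. No count model was run, since the deposited unit is log2. The alternatives were other scalings, a pseudocount of 5, a minimum mean level of 5, other gaps and leaving out each library.

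Members, lists and tests were chosen with earlier results of these data known. Genes named are, per subset, the 8 with the largest gap, the 4 highest on cellulose, the 2 just inside and the 2 just outside the minimum gap, the extremes of straw and of maltose against other media, and the 2 largest calls per direction and comparison.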

Additional observations from a re-analysis of the deposited data

How the results depend on the processing

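Requiring a gap of 2 left 14 genes with cellulose alone and 9 with cellulose and straw above it, and other gaps, scalings, pseudocounts and filters kept both counts within 1.5 times. With each column centred on its median there were 33 and 14 genes, of which 23 and 11 were among those described; under quantile normalisation there were 26 and 14, of which 23 and 13 were. Leaving out 1 library at a time gave 21 to 26 genes with cellulose alone and 14 to 18 with cellulose and straw, from 22 and 15 among genes recovered in all libraries. With 1 library left out, the calls in both subsets together were 21 to 22 for pine against aspen. They were 14 to 19 for pine against maltose and 16 to 18 for aspen against maltose. For straw they were 10 to 12 against maltose and 2 to 5 against cellulose. Other scalings moved the calls further in some comparisons, as given above. Under quantile normalisation straw against cellulose gave 8 calls and gene 65289 a difference of -0.11. That normalisation held the 107 straw values of 13 or more. The values at that level on cellulose (95), maltose (81), aspen (79) and pine (78) were missing from it. Straw libraries were thus matched to libraries without their highest values. The median of straw minus cellulose over all genes tested moved from 0.16 to -0.51. The part of this mismatch in the straw results under quantile normalisation was not tested. For named genes, 154 of the settings without 1 library kept the call and 7 lost it; of the other settings, 129 kept it, 7 lost it and 1 turned its sign. Centring on the median difference was chosen after seeing the data. No paired analysis was possible because the recovered libraries carry no replicate numbers. With 2 or 3 libraries per medium and few reads at low levels, differences in genes such as 163625 and 844015 were not detectable at this depth.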
